A study of Mus musculus with 9 samples.

Results

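The Rab GTPases are the 59 genes whose symbol in the deposited transcription table is Rab followed by a number and at most a letter and a digit, out of 24505 genes listed there. They were chosen by symbol alone, so Rab-like genes under other names are not among them. Nascent transcription had been measured with global run-on sequencing (GRO-seq, a readout of RNA still being made by engaged polymerase in nuclei) in mini-gut cultures from mouse duodenum. There were 3 cultures with 2 libraries each: RANKL, labelled as intestinal M cells; ENRI, labelled as enterocytes, the absorptive cells; and WENRC, labelled as intestinal stem cells. H3K27me3, the histone mark of the Polycomb complex PRC2, had been mapped by ChIP-seq in 2 RANKL libraries, which the authors pooled, and in 1 WENRC library. The labels give tissue, cell type and, for ENRI and WENRC, a mouse number (1 or 2). They do not spell out the culture abbreviations, and strain, age and sex are not given in the sources used here. Nothing in the labels says whether the RANKL libraries came from separate animals, so the p-values below measure the spread between these libraries, which may be technical.

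Rab proteins are small GTPases that mark membranes inside the cell: bound to GTP, each recruits effectors that bud, move, tether or fuse a given kind of vesicle. Guanine nucleotide exchange factors (GEFs) load them with GTP, GTPase-activating proteins (GAPs) return them to the GDP form, and escort proteins deliver them to the enzyme that attaches the lipid holding them to membranes. M cells take up particles from the gut lumen and carry them across the epithelium by transcytosis, a route that runs through endocytosis, endosomal sorting and exocytosis, steps in which Rab proteins act.

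All GRO-seq values here are the authors' normalized log2 values over whole genes. Their transform is not named, but they appear to draw genes with few reads together and so to understate their changes. This is inferred from the authors' larger deposited log2 changes for low genes such as Rab38. A gene was tested where at least 2 libraries reached a linear value of 10, and was called at a limma FDR (adjusted p over all 16563 tested genes) under 0.05. By this filter 53 Rab genes were tested, and 6 were not: Rab7b, Rab9b, Rab34, Rab39b, Rab42 and Rab44, whose values lay between -1.34 and 3.22 in every library. Without division by gene length, the median value of the tested Rab genes lay above that of all tested genes. No comparison per kb with all genes was made. The median of the 53 was 8.46 and 8.52 in the RANKL libraries, 8.16 and 8.40 in ENRI, and 8.28 and 8.16 in WENRC, against 7.68 to 7.81 over all tested genes. Per kb of gene, the highest levels in RANKL were those of Rab24 (6.49), an autophagy-associated Rab, Rab11b (5.82), Rab6a (5.58) and Rab1a (5.50).

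All 10 listed M cell markers were higher in RANKL than in ENRI, and their summed log2 level was 14.74 and 14.83 in RANKL against 10.69 to 11.48 in the other libraries. Of 12 enterocyte markers, 7 were lower in RANKL than in ENRI and 11 lower in WENRC than in ENRI, and their summed level differed between the ENRI libraries (16.36 in ENRI 1, 17.10 in ENRI 2). Of 9 stem cell markers, 8 were higher in WENRC than in ENRI, but 4 (Olfm4, Tnfrsf19, Axin2 and Smoc2) were also higher in RANKL than in ENRI, and between RANKL and WENRC 2 were lower in RANKL and Tnfrsf19 higher. Their summed level was 14.50 and 14.56 in RANKL, 13.10 to 13.39 in ENRI and 14.85 to 14.92 in WENRC. Of the enterocyte markers, 5 were higher in RANKL than in WENRC. Markers of other lineages also moved: 3 of 7 Paneth, 3 of 5 tested tuft and 1 of 7 tested enteroendocrine markers were higher in RANKL than in ENRI, and 5 of 8 goblet markers were lower in WENRC than in ENRI. The summed level of the Paneth list was 11.50 to 11.63 in RANKL and 9.06 to 10.15 elsewhere, that of the tuft list 9.93 to 9.99 and 8.74 to 9.29, and that of the goblet list 10.86 to 11.87 in WENRC and 13.33 to 13.85 elsewhere. The part of these other cells in the Rab results was not tested, and in such mixed cultures fewer cells of a type and less transcription per cell cannot be told apart. The summed level of the mesenchyme and endothelium list was 9.34 and 9.40 in RANKL and 7.14 to 7.98 elsewhere, but most of it came from 1 gene, Pdgfrb. In that list the stromal gene Pdgfrb was higher in RANKL (9.21 and 9.26 against 6.44 to 7.68). Pecam1 had 5.27 and 5.37 against 4.54 to 4.96, and the collagen gene Col1a2, too low to be tested, 1.27 to 1.47. The summed leukocyte list was 7.50 to 8.06 in RANKL and 7.58 to 7.88 elsewhere. Its gene Csf1r lay between 6.78 and 7.51, and Cd3e, also untested, between 2.42 and 3.07. The RANKL libraries are combined reads of a repeat sequencing, per the file headers, so culture and sequencing run cannot be told apart for them.

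A minority of the Rab genes differed between cultures, at shares near or under the background. Between RANKL and ENRI, which sets the cultures labelled M cell and enterocyte against each other, 9 of 53 were called (17.0%), beside 20.9% of all tested genes: Rab8b, Rab31, Rab15 and Rab32 were higher in RANKL (10.4% of all genes were) and Rab30, Rab1a, Rab38, Rab43 and Rab11a lower (10.5%). Between RANKL and WENRC, labelled M cell and stem cell, 5 were called (9.43%, background 12.1%): Rab31, Rab32, Rab8b and Rab21 were higher in RANKL (background 8.53%) and Rab26 lower (3.62%). Between WENRC and ENRI, labelled stem cell and enterocyte, 9 were called (17.0%, background 14.6%): Rab26 and Rab15 were higher in WENRC (background 4.85%) and Rab30, Rab20, Rab6a, Rab1a, Rab4a, Rab8a and Rab11a lower (9.74%). In all, 15 Rab genes were called at least once and 38 tested ones never. The plot of called genes by library shows the 15, and the plot of changes by role all 53.

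**Figure D1:**
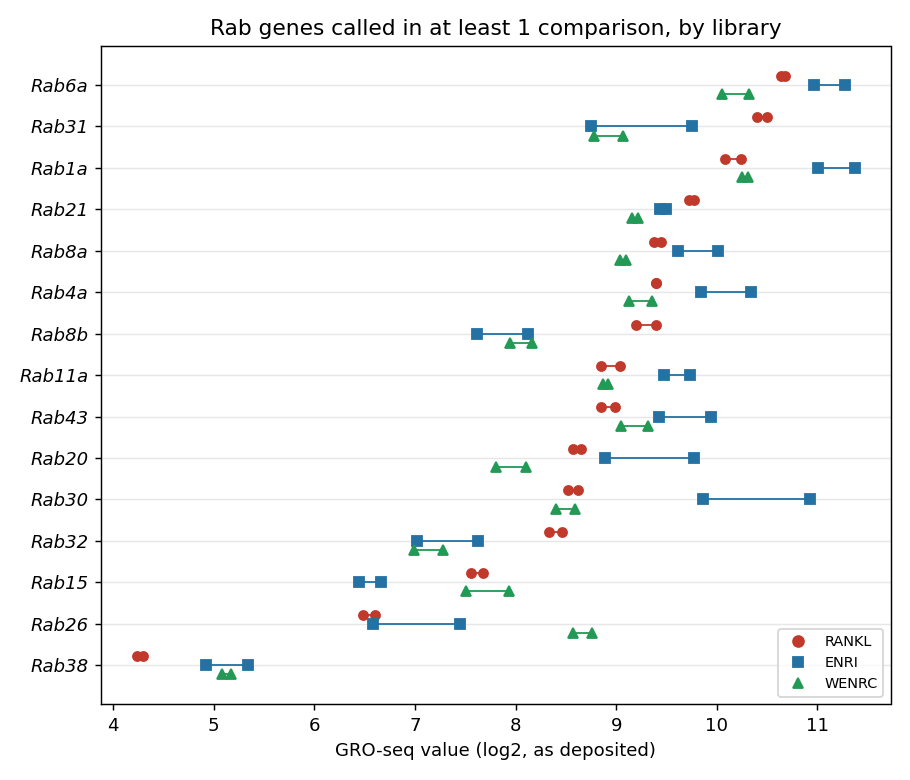
GRO-seq value (log2, as deposited; x axis) of the 15 Rab genes called in at least 1 comparison (y axis, ordered by their RANKL mean). Each point is 1 library, 2 per culture, joined by a line. Rab31, Rab32 and Rab8b have both RANKL points to the right of the other 4 libraries, and Rab26 has both WENRC points (8.57 and 8.76) to the right of the rest.

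The direction of the changes, called or not, was uneven. Of 53 tested Rab genes 18 (34.0%) had a positive change in RANKL over ENRI and 10 (18.9%) in WENRC over ENRI, beside 49.5% and 48.7% of all tested genes, while 37 (69.8%) had a positive change in RANKL over WENRC, beside 49.3%. The median change of the Rab genes was -0.22 for RANKL minus ENRI, 0.16 for RANKL minus WENRC and -0.23 for WENRC minus ENRI, where the median of all genes was within 0.01 of 0. Cultures without overlap were common, with 2 libraries each. For RANKL against WENRC, 25 of 53 Rab genes lay wholly higher and 14 wholly lower, beside 28.9% and 29.7% of all tested genes. For RANKL against ENRI these were 14 and 22 (30.9% and 27.1%), and for WENRC against ENRI 6 and 27 (25.3% and 23.6%). Each pair of comparisons shares a culture, so these are not separate observations. Within mice, 34 of 53 Rab genes were lower in WENRC than in ENRI in both mouse 1 and mouse 2, and 7 were higher in both (36.5% of all tested genes were lower in both).

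These counts depended on single libraries. The number of called Rab genes moved with that of all genes, whose share called is given in brackets. With limma, RANKL minus ENRI gave 4 called Rab genes when only the 4 libraries compared were in the fit (11.6%), and 4 without either WENRC library (11.6% each). It gave 21 without ENRI 1 (42.1%), and 0 without RANKL 1 or RANKL 2 (0.67% and 0.386%), where 10 and 8 had an unadjusted p under 0.05. RANKL minus WENRC gave 18 with only its own 4 libraries (31.4%) and without either ENRI library (31.1% and 31.3%), and 0 without any 1 of its own libraries (0% to 1.58%; 7 to 10 unadjusted). It gave 8 with mouse as a block for the ENRI and WENRC libraries (17.8%), where Rab38, Rab3c and Rab5c were added. WENRC minus ENRI gave 23 without ENRI 1 (40.1%). It gave 0 with only its own 4 libraries (0%, and 0.749% with the block), without either RANKL library (0%) and without either WENRC library (0.235% and 0%), with 11 to 15 unadjusted. Recentring on the upper quartile shifted the median change of all genes to -0.12 for RANKL minus WENRC and to 0.10 for WENRC minus ENRI. The calls then split into 3 higher and 3 lower Rab genes in the first comparison and 3 higher and 5 lower in the second, and the share of all called genes that were higher went from 70.2% to 53.3% and from 33.2% to 54.1%. Rab21 and Rab8a were not called under either other scaling (upper quartile or quantile), Rab43 and Rab4a not under the first and Rab38 not under the second. The ENRI libraries were the most unlike each other: the SD of the difference between replicates over the tested Rab genes was 0.512 in ENRI, 0.223 in WENRC and 0.174 in RANKL.

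**Figure D2:**
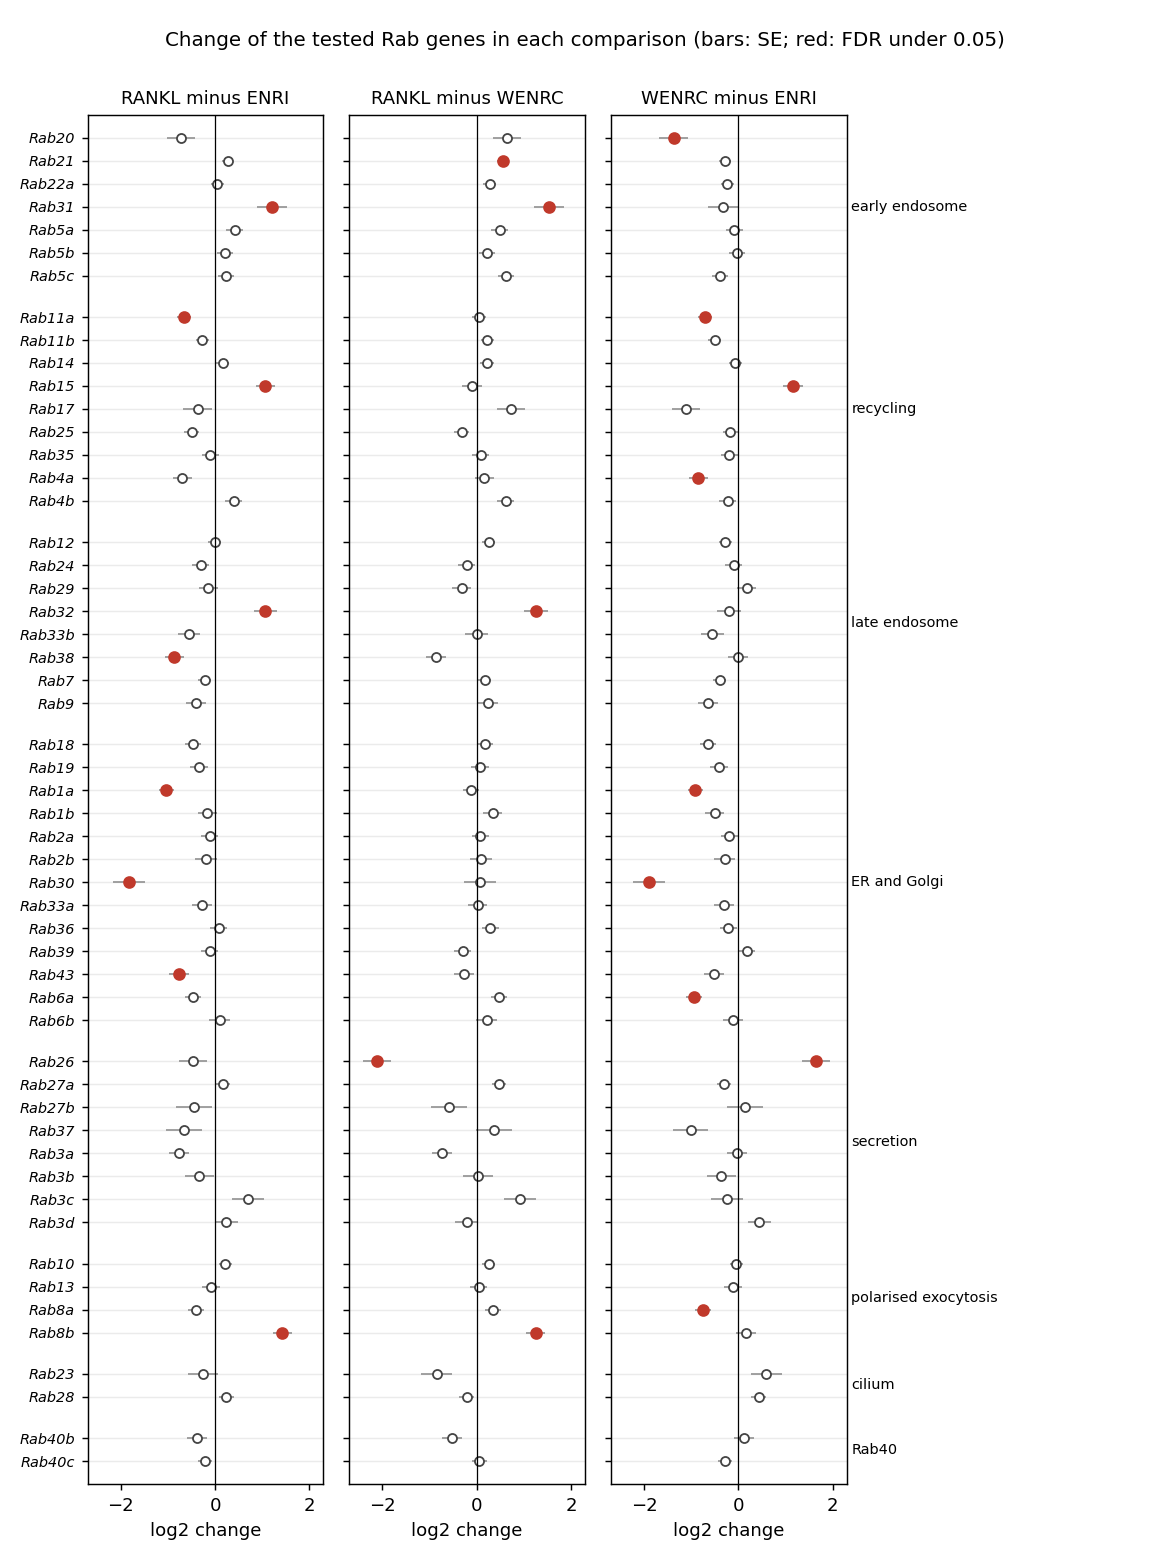
Log2 change (x axis) of the 53 tested Rab genes (y axis, grouped by role) in the 3 comparisons. Points are limma estimates, bars their SE, and red points have an FDR under 0.05. Changes run from -2.12 (Rab26, RANKL minus WENRC) to 1.65 (Rab26, WENRC minus ENRI).

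Among the 7 Rab genes of the early endosome, the first station after uptake, Rab31 was higher in RANKL than in both other cultures and Rab21 higher than in WENRC. Rab31 (NM_133685, mm9 chromosome 17, 66001066 to 66122092), a Rab5-related GTPase of the trans-Golgi and endosomes, had 10.40 and 10.50 in RANKL, 9.75 and 8.75 in ENRI, and 9.07 and 8.78 in WENRC. Both RANKL libraries lay above the other 4, and ENRI 1 lay nearest to them. The change was 1.20 over ENRI (SE 0.32, limma FDR 0.0474) and 1.53 over WENRC (SE 0.32, limma FDR 0.0342). Over ENRI it was 0.71 without ENRI 2 (limma FDR 0.0174) and was not called with only the 4 libraries compared (limma FDR 0.0940). Rab21 (NM_024454, chromosome 10, 114726918 to 114752647), which traffics integrins through early endosomes, had 9.72 and 9.77 in RANKL, 9.44 and 9.50 in ENRI, and 9.16 and 9.22 in WENRC. The 3 cultures did not overlap, and the change over WENRC was 0.55 (SE 0.12, limma FDR 0.0394). Its change over ENRI, 0.27, had an FDR of 0.167.

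The 3 isoforms of Rab5, the principal early endosome GTPase, had their highest mean in RANKL. None was called by the planned limma fit of all 6 libraries. The largest change was that of Rab5c over WENRC, 0.62 (SE 0.17, limma FDR 0.0734), from 9.39 and 9.22 in RANKL to 8.86 and 8.51. Rab5a changed by 0.49 over WENRC (FDR 0.133) and Rab5b by 0.23 (FDR 0.427). Against WENRC, Rab5a and Rab5c had an adjusted p of 0.00763 and 0.0110 in the authors' deposited table, and both were called by limma with only the 4 libraries compared. Rab5a overlaps Pp2d1 on the other strand. Rab22a, another Rab5 relative, had 9.96 and 9.98 in RANKL within the range of ENRI (10.03 and 9.81). Rab20 (NM_011227, chromosome 8, 11453977 to 11478499), a GTPase of endosome and phagosome maturation, was lower in WENRC than in ENRI: it had 8.10 and 7.81 against 8.89 and 9.77, a change of -1.37 (SE 0.30, limma FDR 0.0345). The fall was 0.79 in mouse 1 and 1.96 in mouse 2. RANKL, at 8.65 and 8.57, lay between them. For RANKL minus WENRC, Rab20 had an adjusted p of 0.0197 in the authors' deposited table (log2 change 0.78). With only the 4 libraries compared, limma called it there too. Rab20 overlaps E230013L22Rik, so their reads cannot be told apart if strand was not used in counting.

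Of the 9 Rab genes of recycling endosomes and transcytosis, Rab11a was lower and Rab15 higher in RANKL than in ENRI. No gene of the group was called between RANKL and WENRC by the planned limma fit of all 6 libraries. Rab11a (NM_017382, chromosome 9, 64563107 to 64585563), the GTPase of the apical recycling endosome, had 9.04 and 8.85 in RANKL, 9.73 and 9.48 in ENRI, and 8.92 and 8.87 in WENRC. ENRI stood above the other cultures, which overlapped each other. RANKL minus ENRI was -0.66 (SE 0.15, limma FDR 0.0311) and WENRC minus ENRI -0.71 (SE 0.15, limma FDR 0.0337); both use the same ENRI libraries. In the authors' deposited table neither of these comparisons of Rab11a had an adjusted p under 0.05. Its paralog Rab11b had 10.01 and 9.97 in RANKL, 10.19 and 10.32 in ENRI, and 9.88 and 9.64 in WENRC, and missed the threshold in each comparison (lowest FDR 0.0659, WENRC minus ENRI). Rab25, the epithelial member of the Rab11 group, had 7.23 and 7.31 in RANKL, below the other 4 libraries (7.49 to 7.78), with a change from ENRI of -0.49 (limma FDR 0.0814).

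Rab15 (NM_134050, chromosome 12, 77898947 to 77923511), which regulates early endosome and recycling traffic, went the other way. It had 7.56 and 7.68 in RANKL and 7.51 and 7.93 in WENRC, and 6.66 and 6.44 in ENRI. RANKL was higher than ENRI by 1.07 (SE 0.21, limma FDR 0.0200) and WENRC by 1.17 (SE 0.21, limma FDR 0.0218), while RANKL and WENRC overlapped. Rab4a (NM_009003), of rapid recycling, had 9.40 in both RANKL libraries, 9.84 and 10.34 in ENRI, and 9.36 and 9.13 in WENRC, a change of -0.85 from ENRI to WENRC (SE 0.20, limma FDR 0.0432). Its paralog Rab4b had its highest values in RANKL (8.14 and 8.42, against 7.53 to 7.90). The limma FDRs were 0.0768 against WENRC and 0.161 against ENRI. In the authors' deposited table the adjusted p against WENRC was 0.0355. Limma called Rab4b higher in RANKL than in WENRC with only the 4 libraries compared, and also after quantile normalization.

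Rab17, an epithelial Rab known for its part in transcytosis in polarised cells, was not called in any of the 3 comparisons by the planned limma fit of all 6 libraries. It had 8.13 and 8.26 in RANKL, 8.14 and 9.0 in ENRI, and 7.61 and 7.32 in WENRC. Its change was 0.73 over WENRC (SE 0.30, limma FDR 0.167), -0.37 from ENRI (FDR 0.415) and -1.11 from ENRI to WENRC (FDR 0.0582). RANKL overlapped ENRI and lay above WENRC. In the authors' deposited table Rab17 had an adjusted p of 0.0156 for RANKL minus WENRC and of 0.0301 for WENRC minus ENRI, and with only the 4 libraries compared limma called it between RANKL and WENRC too. Rab14 and Rab35, also of endosomal recycling, had changes between -0.19 and 0.22 in the 3 comparisons, none of them called.

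Among 8 tested Rab genes of late endosomes, lysosomes and lysosome-related organelles, the sister genes Rab32 and Rab38 were called in opposite directions between RANKL and ENRI. Both act in the biogenesis of lysosome-related organelles such as melanosomes. Rab32 (NM_026405, chromosome 10, 10264837 to 10278005) had 8.46 and 8.33 in RANKL, 7.63 and 7.02 in ENRI, and 7.28 and 6.99 in WENRC, so both RANKL libraries lay above the rest. It changed by 1.07 over ENRI (SE 0.25, limma FDR 0.0311) and 1.26 over WENRC (SE 0.25, limma FDR 0.0271). Rab38 (NM_028238, chromosome 7, 95578783 to 95640082) had 4.24 and 4.30 in RANKL, 5.34 and 4.92 in ENRI, and 5.17 and 5.08 in WENRC, with RANKL below the rest. It changed by -0.86 from ENRI (SE 0.21, limma FDR 0.0375) and by -0.86 from WENRC (SE 0.21, limma FDR 0.0532). Rab38 is a low gene, for which the scale appears to understate change: in the authors' deposited table its log2 changes were -2.82 (adjusted p 0.0365) and -2.78 (adjusted p 0.0134). Rab7, the main late endosome GTPase, had 10.52 and 10.59 in RANKL, 10.67 and 10.88 in ENRI, and 10.44 and 10.33 in WENRC, and was not called. Rab9, of transport from late endosomes to the Golgi, Rab12, Rab24, Rab29 and Rab33b were not called either.

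Rab8b showed the largest rise of a Rab gene in RANKL over ENRI. With Rab8a, Rab10 and Rab13 it belongs to the Rab genes of exocytosis at the cell surface and junctions. Rab8b (NM_173413, chromosome 9, 66691471 to 66767512) had 9.40 and 9.20 in RANKL, 8.12 and 7.62 in ENRI, and 7.94 and 8.16 in WENRC. RANKL was above all other libraries, and ENRI and WENRC overlapped. The change was 1.43 over ENRI (SE 0.21, limma FDR 0.0101) and 1.25 over WENRC (SE 0.21, limma FDR 0.0187). Its paralog Rab8a, which acts in apical delivery in enterocytes, had 9.38 and 9.45 in RANKL, 9.61 and 10.01 in ENRI, and 9.10 and 9.04 in WENRC. It was lower in WENRC than in ENRI by -0.74 (SE 0.17, limma FDR 0.0396) and not called for RANKL by the planned fit of all 6 libraries. With only the 4 libraries compared, limma called Rab8a higher in RANKL than in WENRC. Per kb, Rab8a was above Rab8b in RANKL, with levels of 5.08 and 3.05. Rab10 and Rab13 had changes between -0.12 and 0.26 and were not called.

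The sequences before the start sites of the genes higher in RANKL than in both other cultures, Rab8b, Rab31 and Rab32, show what lies at their promoters. RefSeq promoters (GRCm38.p6) were found for 48 of the 59 Rab genes, 60 promoters of 300 bases in all; those of the 11 others, among them Rab26, Rab30 and Rab38, were not used here. Each line gives the 150 bases up to the start site, 5′ to 3′, with capitals marking a match to AGGAAGT, a core bound by Ets factors such as the M cell factor Spi-B. The Rab8b stretch is chr9:66919706-66919855, that of Rab31 chr17:65772753-65772902 and that of Rab32 chr10:10558208-10558357, all on the minus strand.
Rab8b: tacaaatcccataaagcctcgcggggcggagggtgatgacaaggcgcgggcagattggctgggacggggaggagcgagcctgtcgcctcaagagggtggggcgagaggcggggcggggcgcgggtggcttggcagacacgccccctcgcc
Rab31: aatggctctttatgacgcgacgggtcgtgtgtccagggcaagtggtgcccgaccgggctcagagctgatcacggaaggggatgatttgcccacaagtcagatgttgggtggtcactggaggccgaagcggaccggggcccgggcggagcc
Rab32: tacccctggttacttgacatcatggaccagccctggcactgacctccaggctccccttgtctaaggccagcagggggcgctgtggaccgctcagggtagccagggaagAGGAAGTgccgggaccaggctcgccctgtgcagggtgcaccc

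In Rab32 the match lies at bases -42 to -36 from the start. Over the whole windows and on both strands, AGGAAGT was found in 6 of 60 Rab promoters (10%) and in 9.35% of all 32851 RefSeq promoters. AAGGTCA, a motif of the Esrr nuclear receptors, was found in 0 of 60 (4.72% of all), GGNNTTTCC, an NF-kB motif, in 4 (6.67%, against 5.82%), and CTTTGAT, a TCF/LEF motif, in 0 (3.73% of all). A match is a string of letters, not a bound site. Rab promoters were rich in CpG: the median ratio of observed to expected CpG was 0.73, against 0.38 over all promoters.

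Of 13 tested Rab genes of the ER and Golgi, 3 were called lower than in ENRI in RANKL and 3 in WENRC. Of all tested genes, 10.5% and 9.74% were called lower there. No Rab gene of this group was called higher than in ENRI. None of the group was called between RANKL and WENRC by the planned limma fit of all 6 libraries. Rab30 (NM_029494, chromosome 7, 99890224 to 99985627), a Golgi GTPase, had 8.62 and 8.52 in RANKL, 9.86 and 10.93 in ENRI, and 8.59 and 8.40 in WENRC. It was lower by -1.83 in RANKL (SE 0.34, limma FDR 0.0172) and by -1.90 in WENRC (SE 0.34, limma FDR 0.0216); the ENRI libraries differed most from each other. Rab1a (NM_008996, chromosome 11, 20101605 to 20126859), needed for transport from the ER to the Golgi, had 10.08 and 10.24 in RANKL, 11.01 and 11.37 in ENRI, and 10.31 and 10.25 in WENRC. Its changes were -1.03 (SE 0.16, limma FDR 0.0119) in RANKL and -0.91 (SE 0.16, limma FDR 0.0230) in WENRC. Rab1b, its close paralog, had 7.90 and 8.14 in RANKL against 8.16 and 8.21 in ENRI and was not called. Rab6a (NM_024287), of Golgi transport in both directions, had 10.68 and 10.64 in RANKL, 10.97 and 11.27 in ENRI, and 10.32 and 10.05 in WENRC. Its change from ENRI to WENRC was -0.93 (SE 0.17, limma FDR 0.0223), and it overlaps Mrpl48. For RANKL minus WENRC, Rab6a had an adjusted p of 0.00962 in the authors' deposited table (log2 change 0.52). With only the 4 libraries compared, limma called it there too. Rab43, called lower in RANKL at -0.77, stood at the threshold (limma FDR 0.0497) and was -0.51 without ENRI 2 (limma FDR 0.0585).

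Among 8 tested Rab genes of regulated secretion only Rab26 was called, with the largest change of any Rab gene between RANKL and WENRC. Rab26 (NM_177375, chromosome 17, 24665999 to 24670692), known from secretory granules of exocrine cells, had 8.57 and 8.76 in WENRC, 6.60 and 6.48 in RANKL, and 7.45 and 6.58 in ENRI. WENRC stood above the other 4 libraries, and RANKL and ENRI overlapped. RANKL minus WENRC was -2.12 (SE 0.30, limma FDR 0.0115) and WENRC minus ENRI 1.65 (SE 0.30, limma FDR 0.0228). The rise in WENRC was 1.12 in mouse 1 and 2.18 in mouse 2. The summed goblet marker list was at its lowest in these WENRC libraries, and the Paneth list there lay within the range of the ENRI libraries. The enteroendocrine list had 9.01 and 9.77 in WENRC, 9.30 and 10.13 in ENRI, and 10.63 and 11.06 in RANKL. The part of such cells in the values of Rab26 was not tested.

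The other secretory Rab genes were not called by the planned limma fit of all 6 libraries. For RANKL minus WENRC, Rab3c, Rab27b and Rab3a had an adjusted p of 0.00584, 0.0157 and 0.0413 in the authors' deposited table, and all 3 were called by limma with only the 4 libraries compared. Rab3a, Rab3b, Rab3c and Rab3d are the Rab3 family of granule exocytosis. Rab3a was lower in RANKL (6.59 and 6.28) than in any other library (6.99 to 7.36), with FDRs of 0.0534 against ENRI and 0.0768 against WENRC; it overlaps Mpv17l2. Rab27a, of granule docking, had 8.08 and 7.97 in RANKL, above ENRI (7.85 and 7.87) and WENRC (7.55 and 7.57). Its limma FDRs were 0.453 and 0.0935. The fit of only the 4 libraries compared also called Rab27a higher in RANKL than in WENRC. Rab27b had the widest spread of any Rab gene in ENRI (9.89 and 8.71). The remaining tested genes were Rab23 and Rab28 of the cilium and Rab40b and Rab40c, adaptors of ubiquitin ligases. None of them was called in any comparison by the planned limma fit of all 6 libraries. For RANKL minus WENRC, Rab23 had an adjusted p of 0.0117 in the authors' deposited table (log2 change -1.20). With only the 4 libraries compared, limma called it there too. Rab28 was called higher in WENRC than in ENRI under both other scalings.

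The regulators and effectors of Rab proteins were read from lists of 36 GEFs, 35 GAPs, 9 prenylation and membrane cycling factors and 55 effectors tested, 133 genes in all, since Evi5 and Tbc1d1 stand in 2 lists. Of these, 26 (19.5%) were called between RANKL and ENRI, 22 (16.5%) between RANKL and WENRC and 17 (12.8%) between WENRC and ENRI, beside the 20.9%, 12.1% and 14.6% of all tested genes. Among the GEFs, 3 were higher and 2 lower in RANKL than in ENRI, 3 higher and 1 lower than in WENRC, and 3 were lower in WENRC than in ENRI. Dennd6a, a GEF of Rab14, had 11.10 and 11.12 in RANKL, 10.32 and 10.19 in ENRI, and 9.83 and 9.72 in WENRC, with changes of 0.85 (limma FDR 0.0106) and 1.33 (limma FDR 0.00444). Hps4, a subunit of BLOC-3, the GEF of Rab32 and Rab38, had 9.31 and 9.45 in RANKL against 8.59 to 8.68 in the other 4 libraries. It changed by 0.73 over ENRI (SE 0.13, limma FDR 0.0164) and 0.75 over WENRC (SE 0.13, limma FDR 0.0207), though it overlaps another listed gene. Its partner Hps1 had changes of 0.90 and 0.33 with FDRs of 0.0888 and 0.530. Ankrd27 (also called VARP), a GEF of Rab21 that binds Rab32 and Rab38 as an effector, had 9.31 and 9.43 in RANKL, 8.90 and 8.56 in ENRI, and 9.04 and 9.0 in WENRC, a change of 0.64 over ENRI (SE 0.16, limma FDR 0.0399). Dennd1b, a GEF of Rab35, was lower in RANKL than in ENRI by -0.85 (limma FDR 0.0139), as was Rabgef1 (Rabex-5), the GEF of Rab5, by -0.57 (limma FDR 0.0290). Dennd2c was lower in RANKL than in WENRC (-1.15, limma FDR 0.0454), and Ric1, of the Rab6 GEF, higher (0.61, limma FDR 0.0485). In WENRC, Mon1a, of the Rab7 GEF, was lower than in ENRI by -1.13 (limma FDR 0.0444) and Dennd5b by -1.01 (limma FDR 0.0270).

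Of the GAPs, 4 were higher and 5 lower in RANKL than in ENRI, and 6 higher and 4 lower than in WENRC. Tbc1d10b had 9.35 and 9.62 in RANKL against 7.91 to 8.20 elsewhere, with changes of 1.41 (limma FDR 0.00652) and 1.43 (limma FDR 0.00853). Tbc1d17 had 9.24 and 9.27 against 7.75 to 8.23, with changes of 1.18 (limma FDR 0.00946) and 1.39 (limma FDR 0.00803); it overlaps 2 listed genes. Tbc1d2, a Rab7 GAP also known as Armus, went down, with 8.31 and 8.44 in RANKL against 9.47 to 10.21 elsewhere and changes of -1.60 (limma FDR 0.00511) and -1.15 (limma FDR 0.0164). Sgsm1 was lower in RANKL as well (7.72 and 7.59 against 8.30 to 9.30), by -0.79 from ENRI (limma FDR 0.0333) and -1.48 from WENRC (limma FDR 0.00816). In WENRC against ENRI, 5 GAPs were lower, led by Tbc1d15 (-1.14, limma FDR 0.0109) and Tbc1d23 (-1.03, limma FDR 0.0151), and 1 higher, Tbc1d8 (0.51, limma FDR 0.0450).

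Of the prenylation and cycling factors, Chml, the escort protein REP-2, was higher in RANKL than in both other cultures. It had 8.64 and 8.78 in RANKL, 7.02 and 7.51 in ENRI, and 6.97 and 6.87 in WENRC, with changes of 1.45 (SE 0.21, limma FDR 0.00896) and 1.79 (SE 0.21, limma FDR 0.00712); it overlaps another listed gene. Pde6d, a carrier of prenylated proteins, was higher by 1.01 and 0.64 (limma FDR 0.00937 and 0.0449). Rabac1, a prenylated Rab acceptor, was lower in RANKL than in ENRI by -0.99 (limma FDR 0.0356). No factor of this list was called between WENRC and ENRI.

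Of 55 effectors, 4 were higher and 5 lower in RANKL than in ENRI, 5 higher and 1 lower than in WENRC, and 1 higher and 7 lower in WENRC than in ENRI. Eea1, the tether that Rab5 recruits to early endosomes, had 10.87 and 10.95 in RANKL against 9.74 to 10.09 elsewhere, with changes of 0.91 (SE 0.16, limma FDR 0.0146) and 1.02 (SE 0.16, limma FDR 0.0146). Rab11fip4, a Rab11 effector, was higher by 0.98 (limma FDR 0.0326) and 1.28 (limma FDR 0.0213), and Rab11fip3 by 1.16 over WENRC (limma FDR 0.0302). Ocrl, an inositol phosphatase bound by several Rab proteins, was higher than in ENRI by 1.43 (SE 0.32, limma FDR 0.0295). Micall1 and Micall2, which bind Rab8 among others, were lower in RANKL than in ENRI by -1.05 (limma FDR 0.0118) and -1.20 (limma FDR 0.00379), and Wdr44, a Rab11 effector, by -1.03 (limma FDR 0.0234). Rph3al, an effector of Rab3 and Rab27 in granule exocytosis, followed Rab26 in being highest in WENRC: it had 10.14 and 9.74 there against 8.36 to 8.82 elsewhere, -1.20 for RANKL minus WENRC (limma FDR 0.0128) and 1.54 for WENRC minus ENRI (limma FDR 0.0102). Among the called regulators and effectors named, Rab11fip4 also overlaps 2 listed genes, and Dennd1b, Tbc1d8, Rabac1, Micall1 and Rph3al overlap 1 each.

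H3K27me3 was compared between RANKL (32.7 M tags, pooled) and WENRC (36.3 M tags) in regions the authors called as higher in one culture, with no replicate check. A RANKL-higher region lay within 5 kb of a start site in 9 of 59 Rab genes (15.3%), beside 19.1% of all listed genes: Rab33a, Rab37, Rab38, Rab39b, Rab3b, Rab3c, Rab6b, Rab7b and Rab9b. A WENRC-higher region lay there in 0, beside 5.44% of all genes. The 15 regions at these 9 genes were 500 to 6174 bp long, with 20 to 383 RANKL tags against 5.4 to 190 scaled WENRC tags and the authors' fold between 2.02 and 3.89. None reached a fold of 4. The plot of tags by region shows each of them.

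**Figure D3:**
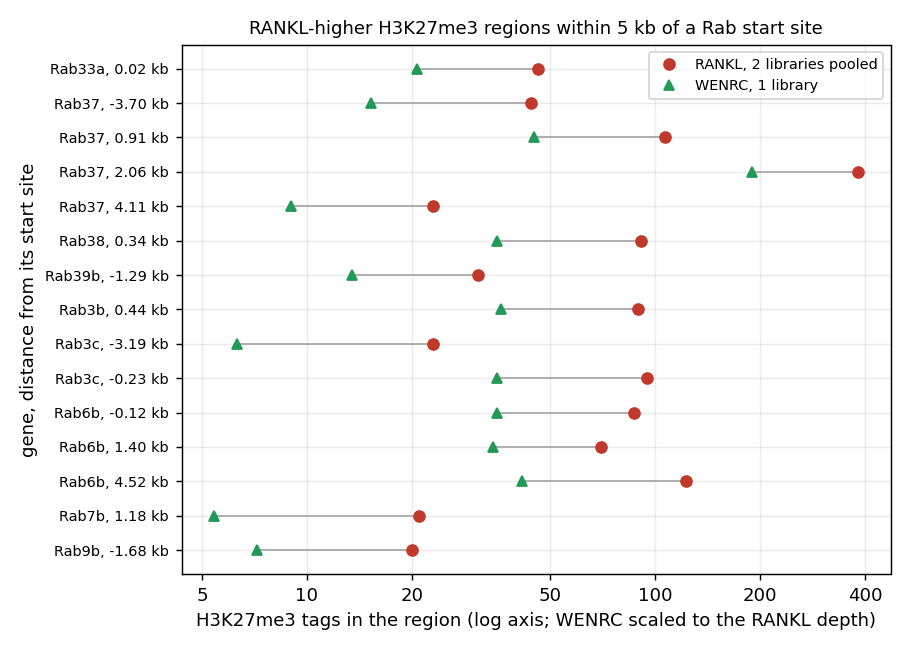
H3K27me3 tags (x axis, log scale) in the 15 RANKL-higher regions within 5 kb of a Rab start site (y axis: gene and distance of the region's centre from the start). Circles are the pooled RANKL libraries and triangles the single WENRC library scaled to the RANKL depth; each circle lies to the right of its triangle, as the selection of the regions requires.

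The regions were placed differently from gene to gene. In Rab33a (mm9 chrX:45872026-45872949), Rab3c (chr13:111070768-111072099) and Rab6b (chr9:103013850-103014719) a region was annotated to the promoter. These held 46, 95 and 87 RANKL tags against 20.7, 35.1 and 35.1 scaled WENRC tags. In Rab38 (chr7:95578245-95580002, 91 against 35.1 tags, fold 2.59) and Rab3b (chr4:108551342-108552884, 89 against 36 tags, fold 2.47) the region reached from the start site into intron 1. Rab37, which overlaps Cd300lf, had 4 regions within 5 kb of a start site, all in introns, with up to 383 against 190 tags. Of these, chr11:115011312-115012268 and the 383-tag region chr11:115014464-115020638 lay at -3.70 and 2.06 kb from a start inside the gene. They lay far downstream of the start listed for Rab37, 114952745. In Rab39b and Rab9b the regions were intergenic, centred at -1.29 and -1.68 kb from the start. Of the 9 genes 3 (Rab33a, Rab39b and Rab9b) are X-linked, and the X chromosome held 20.8% of all RANKL-higher regions and 10.6% of WENRC-higher ones.

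By level per kb, the genes with a start-site region were among the weakly transcribed ones of the family, in both cultures compared. Per kb of gene, their mean log2 level lay between -4.71 and 0.52 in RANKL (median -0.35) and between -4.70 and 0.50 in WENRC (median -0.73). Of the 50 Rab genes without one, 46 in RANKL and 45 in WENRC lay above those ranges, with medians of 4.40 and 4.18. The 4 genes without a region but as low in RANKL were Rab36, Rab39, Rab40b and Rab44. Without division by length, Rab3c alone of the genes with a region lay above the median of all tested genes in RANKL (8.01 and 8.02 against 7.71 and 7.74). In WENRC it lay below that median (6.80 and 7.38 against 7.81 and 7.70). These values describe levels across genes, which are not independent replicates, and whether the same pattern holds over all genes was not tested.

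**Figure D4:**
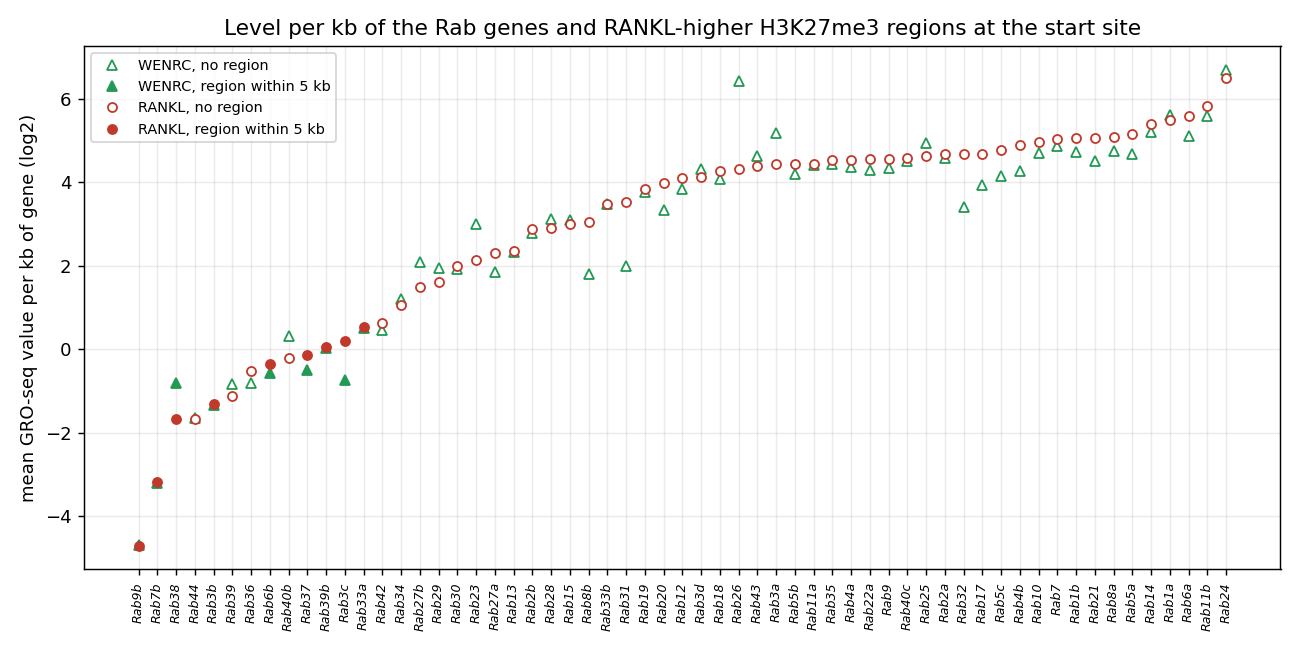
Mean GRO-seq value per kb of gene (log2; y axis) of the 59 Rab genes in RANKL (circles) and WENRC (triangles), ordered by the RANKL level (x axis). Filled symbols mark the 9 genes with a RANKL-higher H3K27me3 region within 5 kb of the start; all 9 lie at or below 0.52 in RANKL.

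Among the 6 of these genes that were tested for transcription, Rab38 alone had a negative change between RANKL and WENRC, -0.86 (limma FDR 0.0532). The other 5 had changes of 0.02 (Rab33a), 0.03 (Rab3b), 0.21 (Rab6b), 0.36 (Rab37) and 0.92 (Rab3c), with FDRs from 0.139 to 0.965. Rab3c (NM_023852, chromosome 13, 110844396 to 111070414) had 8.01 and 8.02 in RANKL and 6.80 and 7.38 in WENRC. The groups did not overlap, but both RANKL libraries lay above both WENRC ones in 28.9% of all tested genes. Rab3c was the nearest gene of 11 RANKL-higher regions, 9 of them in its body, and of 2 WENRC-higher ones, both in its body.

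Promoter sequence is shown for 3 of these genes, with CpG in capitals, since CpG density differs widely among them. The 150 bases up to the start, in GRCm38.p6, are chr4:108878920-108879069 on the plus strand for Rab3b, chr13:110280207-110280356 on the minus strand for Rab3c and chr9:103111924-103112073 on the plus strand for Rab6b.
Rab3b: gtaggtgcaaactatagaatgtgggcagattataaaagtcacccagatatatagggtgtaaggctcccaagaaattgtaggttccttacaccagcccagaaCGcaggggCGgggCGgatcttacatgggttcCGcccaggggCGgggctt
Rab3c: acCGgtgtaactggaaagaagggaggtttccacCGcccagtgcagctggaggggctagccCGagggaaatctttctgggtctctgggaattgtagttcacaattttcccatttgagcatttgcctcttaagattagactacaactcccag
Rab6b: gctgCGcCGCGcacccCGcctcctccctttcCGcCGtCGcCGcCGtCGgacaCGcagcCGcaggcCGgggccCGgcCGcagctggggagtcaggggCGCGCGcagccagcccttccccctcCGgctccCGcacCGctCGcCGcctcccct

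The Rab6b stretch holds 23 CpG, that of Rab3b 5 and that of Rab3c 3. Over the 300-base windows, the observed to expected CpG ratio was 1.02 in Rab6b, 0.40 in Rab3b and 0.59 in Rab3c. Its median was 0.57 over the 6 promoters of genes with a start-site region and 0.75 over the other 54 Rab promoters.

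In all, 80 RANKL-higher and 18 WENRC-higher regions had a Rab gene as their nearest gene, 65 of the 80 and all 18 of them over 5 kb from the start. Of the 65, 22 were assigned to Rab11a, but all 22 lay 65.4 to 172.9 kb from its start, inside the neighbouring gene Megf11, and 0 in Rab11a itself. Rab15, higher in RANKL than in ENRI, held 1 RANKL-higher region in its body, 8.5 kb from the start, with 38 against 11.7 tags. Rab9 held 2 in its body, 6.4 and 7.6 kb from the start. Rab8b, Rab31, Rab32 and Rab26 had no region of either kind as their nearest.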

How the data were processed

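GRO-seq was measured in 6 libraries (2 each of RANKL, ENRI and WENRC) and H3K27me3 in 3. Per the file headers, the authors counted reads over whole genes of mm9 with HOMER, keeping 1 transcript a gene, and deposited normalized log2 values, log2 fold changes and adjusted p-values. Bowtie2 2.3.4.1, HOMER and DESeq2 are named per the submitters' processing notes. The log2 transform is not named in the headers, and strand handling and filters are not given in the sources used here. Read totals of the GRO-seq libraries could not be had from these values, so their depth is unknown and no interval that needs it is given. For H3K27me3 the deposited tag counts of pooled RANKL are whole, the WENRC signal was scaled by the authors to the RANKL depth, and fold (a ratio of tags) and p-value are the authors' own; called regions had a p-value of at most 9.87e-05. Counting error is the only error such tags carry, and regions have no replicates.

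The test planned depended on the unit; since values were log2, limma 3.58.1 (R 4.3.3) was fitted to them as deposited for all 16563 tested genes, with a variance trend, all 6 libraries in 1 fit of 3 culture means, two-sided p-values and Benjamini-Hochberg adjustment. The script was tested on simulated data. Levels per kb divide the linear value by gene length. Rab genes, roles, pathway and marker lists were chosen with earlier results of these data known. Named were the Rab genes called in a comparison, all of the early and recycling endosome roles, those with H3K27me3 near a start, the untested ones, and up to 3 called genes per pathway list and comparison; Hps1 and further secretory and late endosome Rab genes were named after their values were seen. ENRI and WENRC libraries with the same number come from the same mouse per the labels: across genes, the deviations of mouse 1 from the culture means correlated between ENRI and WENRC (Pearson's r 0.42). A block for mouse, single libraries left out, 2 other scalings, 2 other filters, no variance trend, the authors' adjusted p, other distances for H3K27me3 and, after seeing the data, a separate spread per culture were tried.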

Additional observations from a re-analysis of the deposited data

How the results depend on the processing

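Of 353 values of the 23 called changes of single Rab genes under other settings, 0 changed direction, 221 stayed past the threshold and 132 did not. The number of called Rab genes moved by over 1.5 times under these settings. For RANKL minus ENRI (9 called) it was 4 with only the 4 libraries compared, and 0 to 21 with single libraries left out. For RANKL minus WENRC (5 called) it was 18 with only the 4 libraries compared, 8 with mouse as a replicate block, 16 with a separate spread per culture (chosen after seeing the data), 16 by the adjusted p in the authors' deposited table, and 0 to 18 with single libraries left out. For WENRC minus ENRI (9 called) it was 0 with only the 4 libraries compared, also with the block for mouse, 4 for changes of at least 1, and 0 to 23 with single libraries left out. With 1 library left in a culture, limma takes it to vary like the others. The block in the fit of 6 libraries changed neither of the other 2 counts by over 1.5 times. Over all genes tested, the fit of 4 libraries called 0 for WENRC minus ENRI and 124 with the block. The cause was not tested. The median changes kept their sign under both other scalings and all single libraries left out, but upper quartile recentring moved that of RANKL minus WENRC from 0.16 to 0.04 and that of WENRC minus ENRI from -0.23 to -0.11; less the median of all genes they were 0.16 and -0.21. For H3K27me3, 16 Rab genes had a RANKL-higher region within 50 kb of a start (30.5% of all genes had) and 0 with a fold of at least 4 (3.04%); 8 had a WENRC-higher region within 50 kb (18.6%) and 2 within the gene body and 5 kb flanks (13.6%).

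With 2 libraries a culture and no known depth, the smallest change called in a Rab gene was 0.55, and weakly transcribed Rab genes such as Rab38 appear to be compressed by the scale.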
